A study of Mus musculus with 4 samples.

Results

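A group of 10 genes that act as brakes or relays of T cell receptor (TCR) signaling were followed in tumor-infiltrating lymphocytes from mice with and without VISTA in their T cells. They were chosen by name, as the rows Cblb, Ubash3a, Ptpn22, Ptpn6, Sla, Sla2, Dgka, Dgkz, Rasgrp1 and Tagap of the gene count matrices, and make up 10 of the 32285 genes listed there. VISTA, encoded by Vsir, is an inhibitory receptor of the B7 family carried by T cells and by myeloid cells. The VISTA-KO library came from Vsir fl/fl CD4-Cre mice, in which Cre under a Cd4 promoter acts while thymocytes still carry both CD4 and CD8, so the deletion is meant for T cells and not for myeloid cells. The WT library came from Vsir fl/fl littermates without Cre. The methods give mice of both sexes, 6 to 8 weeks old, for the tumor models, and groups matched by sex and age. The sexes and ages within each pool are not stated. Both groups were on the C57BL/6 background, carried B16bl6 melanoma grown from cells placed in the skin, and received the same treatment. That treatment was a TRP2 peptide vaccine with the Toll-like receptor agonists CpG and R848 on day 3 and the anti–CTLA-4 antibody 9H10 on days 4 and 8. Tumors of several mice were pooled per genotype (5 to 6 mice by the methods, 6 to 8 tumors by a figure legend), CD4+ and CD8+ cells were isolated on day 18 after treatment and sorted, and each pool gave 1 gene expression library and 1 receptor library.

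When a TCR binds its peptide, the kinases Lck and Zap70 phosphorylate adaptor proteins, and phospholipase C then makes diacylglycerol, which recruits the Ras activator RasGRP1. Brakes act at each step. The ubiquitin ligase Cbl-b marks activated signaling proteins, the phosphatases PTPN22 and SHP-1 (Ptpn6) and the phosphatase-like UBASH3A (STS-2) restrain the kinases, the adaptors SLAP (Sla) and SLAP-2 (Sla2) lower the amount of receptor at the surface together with Cbl proteins, and the diacylglycerol kinases alpha and zeta (Dgka, Dgkz) remove diacylglycerol. TAGAP, a protein with a RhoGAP domain that is expressed on T cell activation, is less well placed in this scheme.

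The sequences before the starts of Tagap and Rasgrp1 are shown. These genes, and no other member, were at least 1.22-fold higher in the VISTA-KO library in all 3 T cell classes. The limit of 1.22 is the ratio of Rasgrp1 itself in conventional CD4 cells, so it was taken from these values. By the fold used below, only Tagap was past it in all 3 classes. Each line holds the 250 bases before the RefSeq start (GRCm38.p6), 5′ to 3′ on the strand of the gene, chr17:7925750-7925999 on the plus strand for Tagap and chr2:117342878-117343127 on the minus strand for Rasgrp1. Capitals mark GGAAA on either strand (TTTCC when it lies on the other strand), the core of sites for NFAT, a factor activated by TCR signals.
Tagap: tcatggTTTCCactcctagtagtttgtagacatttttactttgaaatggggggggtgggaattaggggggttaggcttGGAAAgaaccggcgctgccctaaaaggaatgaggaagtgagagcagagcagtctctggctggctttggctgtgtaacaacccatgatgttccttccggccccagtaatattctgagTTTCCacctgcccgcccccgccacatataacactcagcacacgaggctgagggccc
Rasgrp1: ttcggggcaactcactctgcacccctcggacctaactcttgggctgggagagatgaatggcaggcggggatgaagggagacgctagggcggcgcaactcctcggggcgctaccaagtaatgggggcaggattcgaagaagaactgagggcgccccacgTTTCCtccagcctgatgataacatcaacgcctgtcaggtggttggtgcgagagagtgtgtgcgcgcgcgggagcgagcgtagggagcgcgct
The Tagap window held 3 matches and the Rasgrp1 window 1. A match was common, since 55.6% of the 32851 listed promoters of this length held at least 1 and 6.39% held 3 or more. Of the 9 members with a listed promoter, 8 held the motif in at least 1 of their windows. Some members have more than 1 window, so the count to set beside the 55.6% is 10 of 14 member windows. The AP-1 motif TGANTCA, found in 6.75% of all promoters, had no match on either strand in any member's window. The same held for GTGGGGGCG, found in 1.18% of all promoters and the only string searched for EGR. Other forms of the EGR site were not searched, so this result does not show that EGR sites are absent from these windows. Such matches describe letters only. Sla had no listed promoter.

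The deposited matrices held 10337 WT and 10085 VISTA-KO barcodes with 72098984 and 59916814 unique molecular identifiers (UMIs, each standing for 1 captured RNA molecule). Cells in which 600 genes or more were detected and mitochondrial genes gave under 30% of the UMIs, the limits of the study's methods, numbered 10224 and 9946. Levels are given as CPM, the UMIs of a gene per 1000000 UMIs of all genes in the same cells. Cells were classed by defining genes: CD8 cells (Cd8a or Cd8b1, no Cd4), 5482 WT and 4301 VISTA-KO; conventional CD4 cells (Cd4, no Foxp3), 1661 and 2983; regulatory cells (Cd4 and Foxp3), 1491 and 1260; and cells with 2 or more UMIs of Siglech, 221 and 138. The Siglech cells carried the 7 fixed markers of plasmacytoid dendritic cells at a summed 12403 and 14447 CPM, against 275 to 362 in the T cell classes. Their 4 T cell markers were not absent, at 1260 and 631 CPM against 4140 to 4726 in the T cell classes. The CD4-defined classes held Cd8a and Cd8b1 at 848 and 894 CPM in WT and 387 and 441 in VISTA-KO, which stands beside every comparison of those classes and whose part in it was not tested. Of the CD8 cells, 343 in WT and 174 in VISTA-KO held a Foxp3 UMI, with Foxp3 at 37.4 and 19.9 CPM in the class. The part of these cells in the CD8 ratios was not tested. Regulatory cells were deeper in WT, with a median of 8739 UMIs against 5908. Only 1 library exists per genotype, so no difference between genotypes was tested. Intervals below are exact 95% intervals that cover counting error only, and neither the spread between mice nor that between library preparations can be seen. Vsir RNA, the targeted gene, was at 112 CPM in CD8 cells of both libraries, 114 and 120 in conventional CD4 cells and 114 and 118 in regulatory cells. Vsir was at 69.5 and 50.3 CPM in Siglech cells. Reads from one end of a transcript can lie outside a deleted exon, so this level checks neither the deletion nor the labels.

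In CD8 cells, 3 of the 10 genes lay past the fold used here, where log2(CPM plus 5) differs between the genotypes by 0.3 or more. All 3 were higher in VISTA-KO: Tagap, Sla and Rasgrp1. Of all 6065 genes at 20 CPM or more in 1 of the libraries, 2.85% were as much higher and 1.95% as much lower, 4.80% in all. In conventional CD4 cells 1 of the 10, Tagap, was past the fold, with 3.87% of 6261 genes higher and 4.95% lower, 8.82% in all. In regulatory cells Tagap and Rasgrp1 were past it upward and Ptpn6 downward, with 7.51% of 6274 genes higher and 6.30% lower, 13.8% in all. The median log2 ratio of the 10 genes was 0.04 in CD8, 0.00 in conventional CD4 and -0.07 in regulatory cells, against -0.03, -0.04 and -0.01 over all genes tested, so the middle of the set lay near that of all genes. The members past the fold were few, Tagap above all, and in CD8 cells most brakes stood at nearly the same level in both libraries. In the CD4-defined classes several brakes differed within the fold, in both directions, such as Cblb (0.862) and Dgka (1.18) in regulatory cells.

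**Figure D1:**
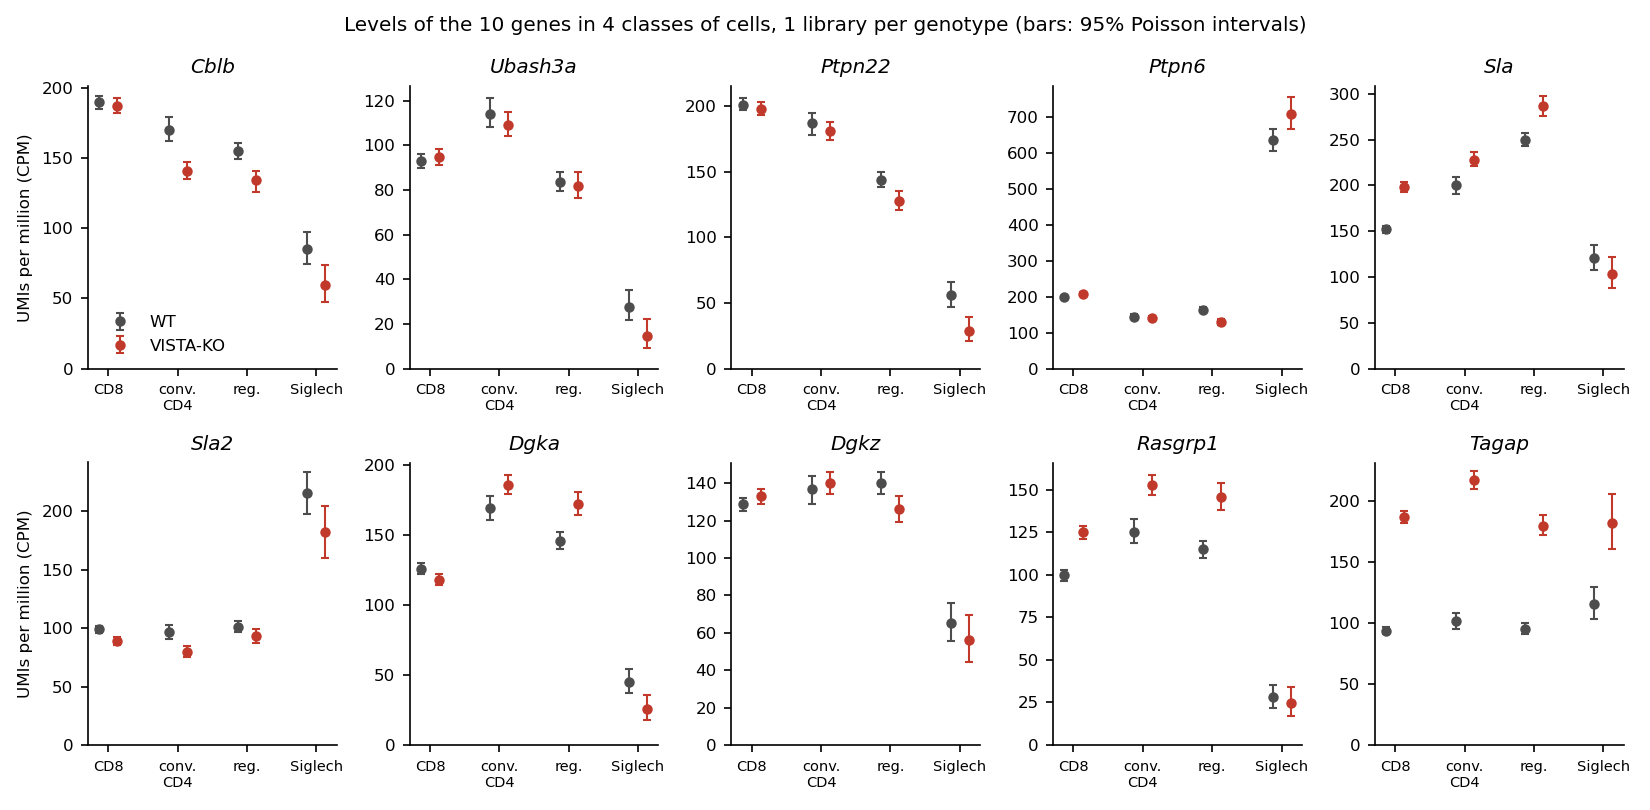
Level of each gene in CPM (vertical axis, starting at 0) in CD8, conventional CD4, regulatory and Siglech cells (horizontal axis) of the WT (grey) and VISTA-KO (red) library; bars are 95% Poisson intervals of the counts. Tagap stands higher in VISTA-KO in all 4 classes, at 180 to 217 against 93.8 to 116, and Ptpn6 and Sla2 are highest in Siglech cells.

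Among the ubiquitin and phosphatase brakes, Cblb (chr16:52031230-52208047), the ligase that holds back activation without CD28 help, was at 190 CPM in WT and 187 in VISTA-KO CD8 cells, a ratio of 0.989 (0.954 to 1.02). In conventional CD4 cells it was at 170 and 141 CPM, a ratio of 0.827 (0.776 to 0.883), and in regulatory cells at 155 and 134, a ratio of 0.862 (0.805 to 0.921). Cblb was thus level between the genotypes in CD8 cells and lower in VISTA-KO in both CD4-defined classes, there below the fold. Ubash3a (chr17:31207868-31259681) was at 92.9 and 94.8 CPM in CD8 cells, 114 and 109 in conventional CD4 cells and 83.6 and 81.9 in regulatory cells, and its interval of the ratio held 1 in each. Ptpn22 (chr3:103856575-103912252), the phosphatase that acts on Lck and Zap70 and whose human counterpart is tied to autoimmune disease, was at 201 and 198 CPM in CD8 cells and at 187 and 181 in conventional CD4 cells. In regulatory cells it was at 144 and 128 CPM, a ratio of 0.889 (0.830 to 0.952). In CD8 cells these 3 brakes thus stood at nearly the same level in both libraries. Cblb in regulatory cells was past the fold downward under some settings, with a log2 ratio of -0.33 when cells were thinned to 2000 UMIs and of -0.35 without cells holding a Mki67 or Top2a UMI, against -0.21. It was also past the fold in conventional CD4 cells, at -0.32 against -0.26, where 2 UMIs of each defining gene were asked for.

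Ptpn6 (chr6:124720707-124738709), which encodes SHP-1, was at 198 CPM in WT and 208 in VISTA-KO CD8 cells, a ratio of 1.05 (1.02 to 1.09), and at 144 and 141 in conventional CD4 cells. In regulatory cells it was at 163 and 130 CPM, a ratio of 0.793 (0.741 to 0.848), the only member past the fold downward in a T cell class. With each cell thinned to 2000 UMIs that log2 ratio went from -0.32 to -0.49, and without cells holding a Mki67 or Top2a UMI it was -0.29, just inside the fold. The share of regulatory cells with a Ptpn6 UMI at 2000 UMIs per cell was 25.6% in WT and 18.1% in VISTA-KO.

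The adaptors differed in direction. Sla (chr15:66780819-66831829) was at 152 CPM in WT and 198 in VISTA-KO CD8 cells, a ratio of 1.30 (1.25 to 1.35). It was at 200 and 228 in conventional CD4 cells, a ratio of 1.14 (1.08 to 1.21), and at 250 and 287 in regulatory cells, a ratio of 1.15 (1.09 to 1.20). Sla was higher in VISTA-KO in each T cell class, past the fold in CD8 cells alone. When regulatory cells were thinned to 2000 UMIs its log2 ratio there went from 0.19 to 0.02. Sla2 (chr2:156874151-156887250) was at 99.1 and 88.7 CPM in CD8 cells, 96.6 and 80.0 in conventional CD4 cells and 101 and 93.0 in regulatory cells. Its ratios were 0.895 (0.850 to 0.942), 0.828 (0.760 to 0.902) and 0.917 (0.845 to 0.995), lower in VISTA-KO each time and within the fold.

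At the diacylglycerol step, the relay was higher in VISTA-KO in each T cell class, by a ratio near the fold. The kinases that oppose it lay within the fold in these classes, Dgka in both directions. Rasgrp1 (chr2:117279983-117342877) was at 99.9 CPM in WT and 125 in VISTA-KO CD8 cells, a ratio of 1.25 (1.19 to 1.31). In conventional CD4 cells it was at 125 and 153, a ratio of 1.22 (1.14 to 1.31) and a log2 ratio of 0.27, just under the fold. That log2 ratio was 0.12 when cells were thinned to 2000 UMIs and 0.17 without cells holding a Mki67 or Top2a UMI, and up to 0.34 under other settings. In regulatory cells it was at 115 and 146, a ratio of 1.27 (1.19 to 1.36). Its log2 ratio in CD8 cells, 0.31, stood close to the fold and was 0.29 with the largest clonotypes left out. The regulatory one, 0.33, was 0.23 without doublet-like cells, those with a second beta chain or over 20000 UMIs.

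Dgka (chr10:128720131-128745084), the alpha kinase, was at 126 and 118 CPM in CD8 cells, a ratio of 0.936 (0.895 to 0.979). It was at 169 and 186 in conventional CD4 cells, a ratio of 1.10 (1.03 to 1.17), and at 146 and 172 in regulatory cells, a ratio of 1.18 (1.11 to 1.26). The interval lay below 1 in CD8 cells and above 1 in both CD4-defined classes, and the difference between classes was not tested. The CD8 log2 ratio of -0.09 was 0.00 without the largest clonotypes, and the conventional CD4 one of 0.13 was -0.02 without cells holding a Mki67 or Top2a UMI. The regulatory one of 0.23 was 0.05 without those cells, where the CD8 one was -0.05, and 0.11 without doublet-like cells. The gene overlaps the end of Pmel, a melanoma gene, which was at 3.05 and 88.9 CPM in CD8, 88.8 and 5.74 in conventional CD4 and 0.856 and 84.3 in regulatory cells. Nearly all melanoma marker UMIs of the classes with the high values came from 1 to 3 cells per class. Without cells holding 5 or more melanoma UMIs the same members lay past the fold in each class. Dgka, not among them in any T cell class, then had log2 ratios of -0.08 in CD8, 0.12 in conventional CD4 and 0.25 in regulatory cells. With those cells kept they were -0.09, 0.13 and 0.23. The part of Pmel reads in Dgka was not tested otherwise. Dgkz (chr2:91932822-91976443), the zeta kinase, was at 129 and 133 CPM in CD8, 137 and 140 in conventional CD4 and 140 and 126 in regulatory cells, with ratios of 1.03 (0.988 to 1.08), 1.03 (0.957 to 1.10) and 0.900 (0.839 to 0.965).

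Tagap (ENSMUSG00000033450, chr17:7926000-7934897) showed the largest ratio of the 10 genes in every class. It was at 93.8 CPM in WT and 187 in VISTA-KO CD8 cells, a ratio of 1.99 (1.91 to 2.08). In conventional CD4 cells it was at 102 and 217 CPM, a ratio of 2.14 (1.99 to 2.30), and in regulatory cells at 95.5 and 180, a ratio of 1.89 (1.77 to 2.02). Across the T cell classes, which share their library, Tagap ran from 93.8 to 102 CPM in WT and from 180 to 217 in VISTA-KO. In VISTA-KO its level in regulatory cells was 0.830 (0.783 to 0.880) of that in conventional CD4 cells. In Siglech cells Tagap was at 116 and 182 CPM, a ratio of 1.57 (1.33 to 1.86), although the T cell markers of these cells were lower in VISTA-KO. Nr4a1, a gene induced by TCR signals, was at 98.8 and 275 CPM in the same Siglech cells, a ratio of 2.78 (2.37 to 3.27). The ratio of Tagap is thus not confined to cells classed as T cells in these libraries. The lowest log2 ratio of Tagap under any alternative was 0.93 in CD8 cells, 0.94 in conventional CD4 cells and 0.65 in regulatory cells, the last without cells that hold a Mki67 or Top2a UMI.

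A second gene named in the same region showed a like ratio. E430024P14Rik (ENSMUSG00000090069) is a name that RefSeq gives as a synonym of the long noncoding RNA gene Gm1604a, whose span (chr17:7855073-8108015, minus strand) holds that of Tagap. The deposited matrices list Gm1604a as a gene of its own, so that the position and strand of the counted E430024P14Rik rest on this synonym alone. E430024P14Rik was at 16.3 CPM in WT and 37.2 in VISTA-KO CD8 cells, a ratio of 2.28 (2.06 to 2.52). The ratios were 2.59 (2.18 to 3.09) in conventional CD4, 2.12 (1.82 to 2.47) in regulatory and 1.66 (1.11 to 2.48) in Siglech cells, each with an interval above 1. In the 6 gates of CD8 cells described below it was higher in VISTA-KO in 6, by 1.71-fold to 2.88-fold. How the authors' counting treated strand was not checked here. If the 2 genes overlap, whether both transcripts were higher or reads of one were counted for the other was not tested. Tagap1, a near copy of Tagap elsewhere on chromosome 17, was at 1.33 and 1.75 CPM in CD8 cells and under 3 CPM in every class, and reads that fit both copies may be missing from either count.

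**Figure D2:**
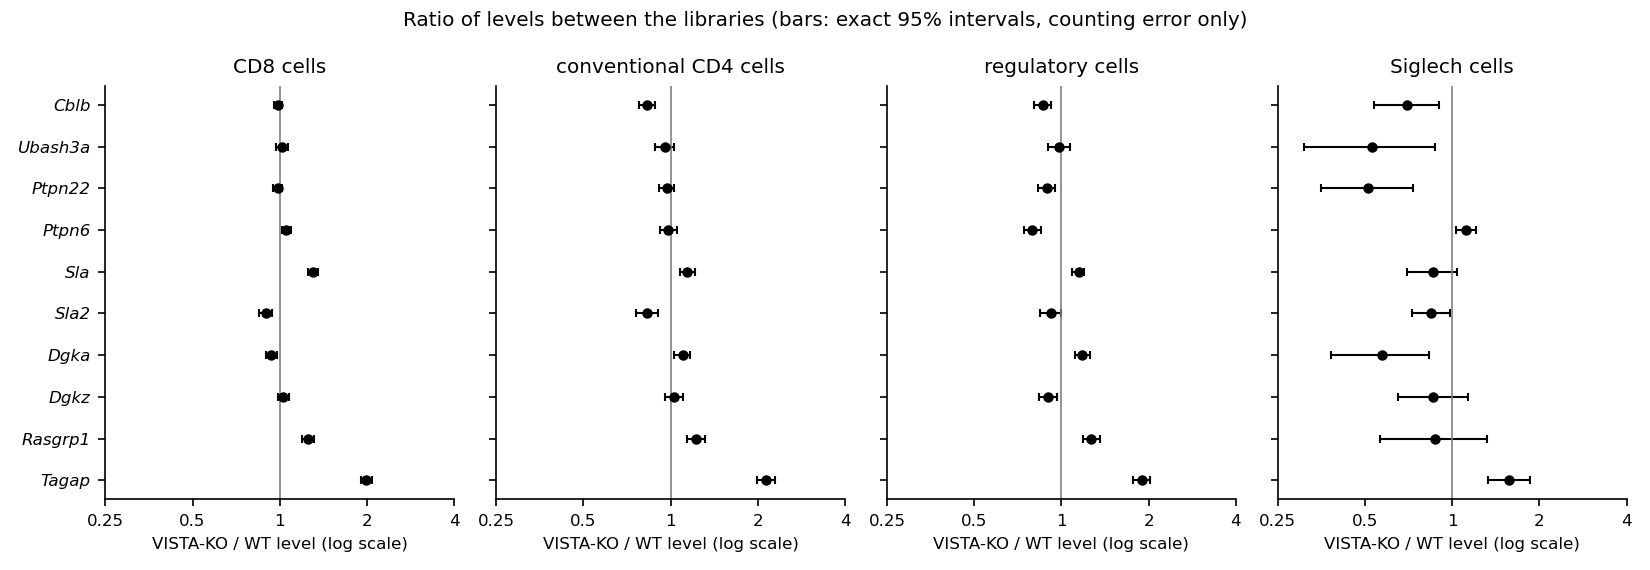
Ratio of the VISTA-KO level to the WT level of each gene (horizontal axis, log scale) in 4 classes of cells, with exact 95% intervals for counting error; the grey line marks 1. Tagap lies between 1.57 and 2.14 in all 4 panels and Rasgrp1 at 1.22 to 1.27 in the T cell panels, while Cblb, Ubash3a, Ptpn22 and Dgkz in CD8 cells lie within a few percent of 1.

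The classes were also compared within each library, where a gene was called at a log2 ratio of at least 0.5 in size and of the same sign in both. Regulatory over CD8 cells called 1 member, Sla, at 1.64 times the CD8 level in WT and 1.44 times in VISTA-KO, against 6.20% of all 6512 genes called higher and 2.78% lower, 8.98% in all. Sla lost that call when ratios were divided by the median ratio over genes. Conventional CD4 over CD8 cells called none of the members, with 3.53% of 6430 genes called higher and 1.46% lower, 4.99% in all. There were likewise none for regulatory over conventional CD4 cells, with 4.20% of 6555 genes higher and 2.88% lower, 7.08% in all. Ptpn22 came close, at 0.715 and 0.646 of the CD8 level in regulatory cells, and Ptpn6 at 0.727 and 0.678 of the CD8 level in conventional CD4 cells. When each cell was thinned to 2000 UMIs, Ptpn22 was called lower in regulatory than CD8 cells (log2 ratios of -0.68 and -0.63), Ptpn6 lower in conventional CD4 cells (-0.71 and -0.60) and Dgka higher there (0.53 and 0.62). The 3 T cell classes therefore carried most of these genes at similar levels.

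Siglech cells differed from CD8 cells far more, with 8 of the 10 genes called, but 35.6% of all 7062 genes were called in that comparison, 19.4% higher and 16.3% lower. Ptpn6 was at 635 and 710 CPM there, 3.20 and 3.41 times the CD8 level, and Sla2 at 216 and 182 CPM, 2.18 and 2.05 times. The other 6 called members were lower than in CD8 cells. Ubash3a was at 27.7 and 14.7 CPM, Ptpn22 at 55.9 and 28.7 and Rasgrp1 at 28.1 and 24.5. These were 0.298 and 0.155, 0.277 and 0.145, and 0.282 and 0.196 of the CD8 level, close to those of the T cell markers Cd3d, Cd3e, Cd3g and Trac, which ran from 0.249 to 0.313 in WT and, in VISTA-KO, from 0.124 to 0.228. Dgka, at 0.360 and 0.219, also had an interval that reached the highest marker in both libraries. The other 6 members, Cblb, Ptpn6, Sla, Sla2, Dgkz and Tagap, had intervals above the ratios of all 4 markers in both libraries. For Cblb in VISTA-KO the interval (0.253 to 0.393) overlapped that of Trac (0.187 to 0.276). The share of all genes above the markers was not counted, so this does not set the 6 members apart. Between genotypes, Cblb (0.698), Ubash3a (0.529), Ptpn22 (0.513) and Dgka (0.571) were past the fold downward in Siglech cells and Tagap upward, with 13.5% and 11.9% of 6405 genes as far, 25.3% in all. The summed T cell markers were lower in the same direction, 631 against 1260 CPM, and their part in these 4 ratios was not tested. The counts were small, down to 21 UMIs for Ubash3a in VISTA-KO. With each cell thinned to 2000 UMIs the log2 ratios were 0.05 for Cblb, -0.28 for Ptpn22 and 0.04 for Dgka, all within the fold, and that of Ubash3a turned to 0.51, while Tagap kept 0.55. No member was then past the fold downward. Without doublet-like cells Ubash3a (-0.41) and Ptpn22 (-0.61) were, and Cblb (-0.25) and Dgka (0.01) were not.

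The share of cells with at least 1 UMI was compared after every cell was thinned to 2000 UMIs. Tagap was found in 17.2% of WT and 29.9% of VISTA-KO CD8 cells, 17.1% and 32.7% of conventional CD4 cells and 17.4% and 27.9% of regulatory cells. Unthinned, the CD8 shares were 37.0% and 55.4%. Sla went from 26.7% to 31.2% and Rasgrp1 from 19.1% to 23.0% of CD8 cells, while Cblb (29.1% and 28.0%), Ubash3a (17.4% and 18.3%) and Ptpn6 (28.1% and 28.7%) differed by little. The thinned Siglech cells gave no common background for the members. Tagap was found in 18.6% and 27.0% of them, with intervals that overlapped, and Ptpn6 in 66.8% and 76.6%. The lowest shares there were those of Rasgrp1, 2.27% and 2.92%, and Ubash3a, 2.27% and 3.65%. The median depth of Siglech cells before thinning was 9181 and 9485.5 UMIs against 4819 and 5196 in CD8 cells. The higher Tagap level thus went with more cells that held a Tagap UMI at equal depth.

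The CD8 cells were then split by other genes into gates, each cell entering the first that it met. Of the 7 gates, 6 are described: dividing cells with Mki67 or Top2a, cells with Havcr2 and Pdcd1, with Tcf7 and Pdcd1, with Pdcd1 alone, with Il7r, and the rest. The remaining gate is not reported here, and the counts of gates leave it out. Havcr2 and Pdcd1 mark chronically stimulated cells, Tcf7 with Pdcd1 their self-renewing precursors, and Il7r memory cells. Tagap was higher in VISTA-KO in 6 of the 6 gates, by 1.70-fold among Havcr2 and Pdcd1 cells to 2.34-fold among Il7r cells. Its level was 114 and 266 CPM among Il7r cells and 123 and 259 in the rest, against 60.9 and 108 among dividing cells. Tagap was thus lowest among dividing cells in both libraries. Rasgrp1 was also higher in VISTA-KO in 6 of the 6 gates, from 1.11 (0.952 to 1.28) among Tcf7 and Pdcd1 cells to 1.28 (1.14 to 1.45) among Havcr2 and Pdcd1 cells. Sla was highest in VISTA-KO cells with Pdcd1 alone, at 248 CPM against 156 in WT, a ratio of 1.59 (1.46 to 1.73). Among Il7r cells Sla was at 162 and 187 CPM, its smallest ratio of the 6 gates, 1.15 (1.00 to 1.32).

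**Figure D3:**
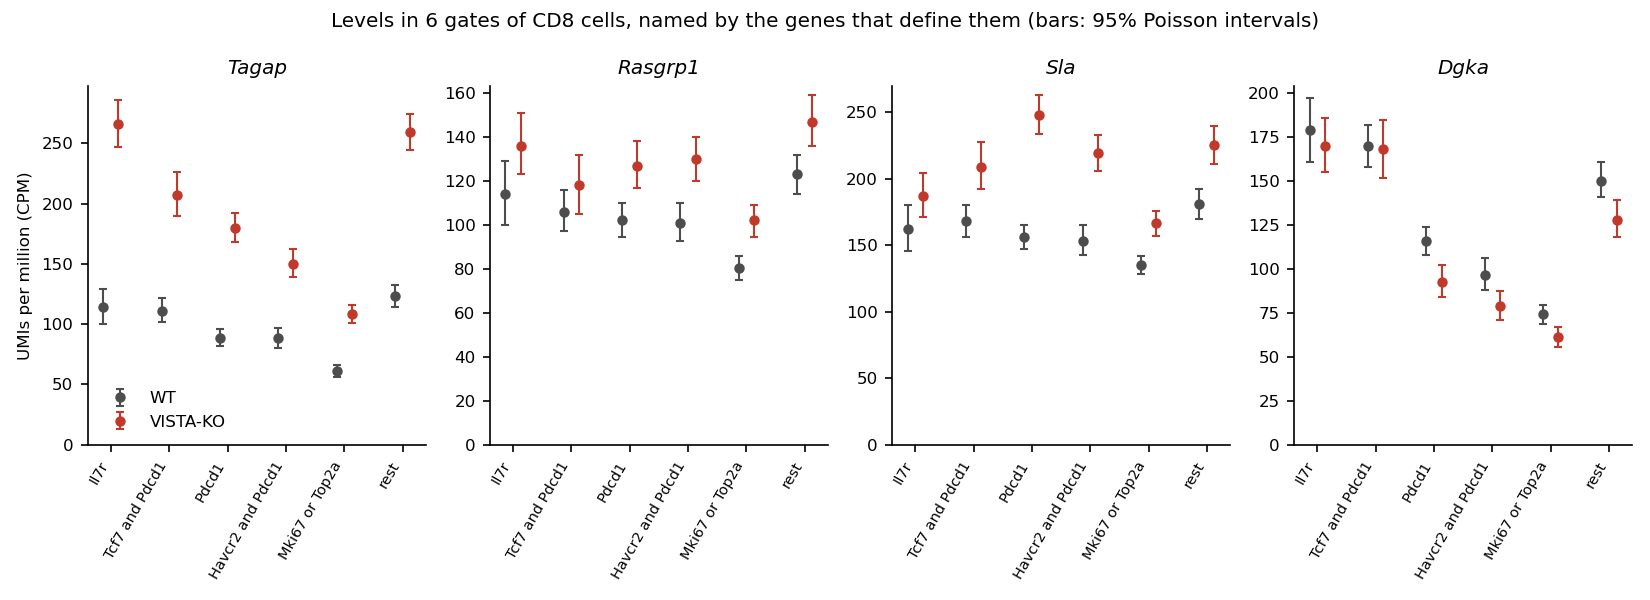
Level of Tagap, Rasgrp1, Sla and Dgka in CPM (vertical axis, starting at 0) in 6 gates of CD8 cells named by their defining genes (horizontal axis), WT in grey and VISTA-KO in red, with 95% Poisson intervals. Tagap lies higher in VISTA-KO in the 6 gates shown, and Dgka runs from 179 and 170 among Il7r cells down to 74.1 and 61.1 among dividing cells.

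Dgka had the widest span of the members over the 6 gates, 2.42-fold in WT and 2.78-fold in VISTA-KO. It was at 179 and 170 CPM among Il7r cells, a ratio of 0.951 (0.830 to 1.09), and its interval of the ratio lay below 1 in 4 of the 6 gates. Among cells with Pdcd1 alone Dgka was at 116 and 92.7 CPM, a ratio of 0.800 (0.710 to 0.900). Cblb was arranged otherwise, highest among Havcr2 and Pdcd1 cells, at 246 and 251 CPM, against 155 and 131 among Il7r cells. Ubash3a and Ptpn22 were lowest among dividing cells in both libraries, at 78.9 and 80.1 CPM for Ubash3a and 156 and 180 for Ptpn22. Gate sizes differed between the libraries, from 9.23% against 12.6% of CD8 cells with Tcf7 and Pdcd1 to 13.2% against 8.72% with Il7r (VISTA-KO against WT). With the levels of all 7 gates weighted as in WT, the ratio of Tagap was 1.95, of Sla 1.32, of Rasgrp1 1.24 and of Dgka 0.903, close to the unweighted 1.99, 1.30, 1.25 and 0.936.

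To set the members beside Nr4a1, cells thinned to 2000 UMIs were split by their Nr4a1 UMIs. Nr4a1 was also 2.78-fold higher in the Siglech cells of VISTA-KO, and how far these strata follow TCR signals was not tested. Of CD8 cells, 5.35% in WT and 17.6% in VISTA-KO held 2 or more, of conventional CD4 cells 8.31% and 35.0% and of regulatory cells 9.41% and 38.0%. Tagap went with Nr4a1 in both libraries: in CD8 cells it was at 93.0, 152 and 234 CPM in WT cells with 0, 1 and 2 or more Nr4a1 UMIs and at 178, 224 and 372 CPM in VISTA-KO. The highest stratum stood at 2.51 times the lowest in WT (2.07 to 3.03) and 2.09 times in VISTA-KO (1.88 to 2.33). In CD8 cells Ptpn6 and Sla were also higher with Nr4a1, 1.29 and 1.26 times for Ptpn6 and 1.29 and 1.31 times for Sla. Cblb was lower there, 0.774 and 0.828 times. Rasgrp1 was higher there in WT, 1.37 times (1.08 to 1.72), but not in VISTA-KO, 0.926 times (0.785 to 1.09). In regulatory cells the intervals of Ptpn6 (0.968 and 0.933), Sla (1.06 and 1.03) and Cblb (0.818 and 1.10) all held 1. In conventional CD4 cells those of Cblb (1.06 and 0.977) did too, while Ptpn6 in WT (1.45) and Sla in VISTA-KO (1.15) had intervals above 1. Among CD8 cells without a Nr4a1 UMI, Tagap was still 1.92-fold higher in VISTA-KO (1.74 to 2.11), Rasgrp1 1.33-fold (1.20 to 1.46) and Sla 1.22-fold (1.13 to 1.33). In that stratum Tagap was 2.18-fold higher in conventional CD4 cells (1.86 to 2.57) and 1.60-fold in regulatory cells (1.29 to 1.98), while Sla, at 1.04 and 1.01, had intervals that held 1. Among CD8 cells with 2 or more Nr4a1 UMIs the ratio of Rasgrp1 was 0.899 (0.690 to 1.18), so its difference was not seen there. At this depth a cell with 0 Nr4a1 UMIs may still hold Nr4a1 RNA.

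**Figure D4:**
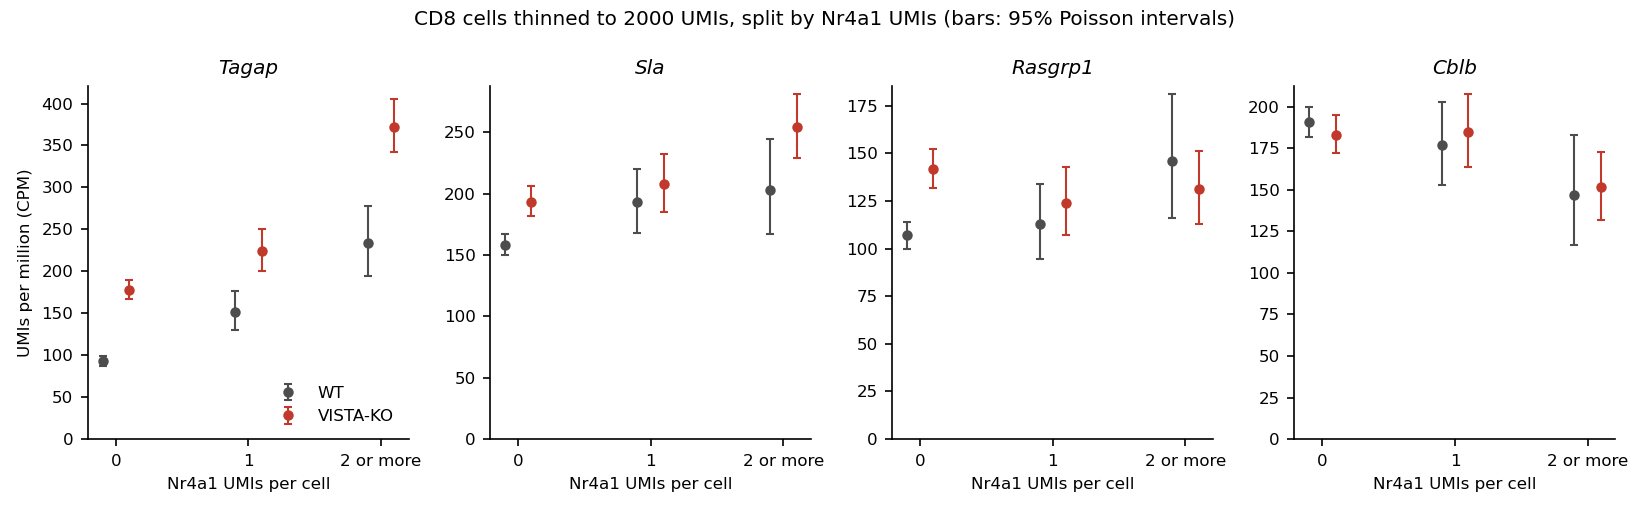
Level of Tagap, Sla, Rasgrp1 and Cblb in CPM (vertical axis, starting at 0) in CD8 cells thinned to 2000 UMIs, by the number of Nr4a1 UMIs in the cell (horizontal axis), WT in grey and VISTA-KO in red, with 95% Poisson intervals. Tagap climbs from 93.0 to 234 in WT and from 178 to 372 in VISTA-KO, and Cblb is lower at 2 or more Nr4a1 UMIs in both.

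The receptor libraries gave a pair of TCR chains for 4152 WT and 3453 VISTA-KO CD8 cells, in 1143 and 1652 clonotypes. The largest clonotype held 1034 WT cells (24.9%) and 291 VISTA-KO cells (8.43%). Cells of 1 clonotype descend from 1 T cell, so the summed levels below rest on fewer independent units than cells, and their intervals cover the counting of UMIs only. Dgka and Tagap were lower in expanded cells: clonotypes of 10 or more cells had 0.572 (WT) and 0.430 (VISTA-KO) times the Dgka level of clonotypes seen once, and 0.679 and 0.579 times the Tagap level. Cblb was higher in the expanded cells, 1.37 and 1.50 times. Without the largest clonotype of either library these values were 0.454 and 0.429 for Dgka, 0.625 and 0.596 for Tagap and 1.56 and 1.57 for Cblb. In expanded clonotypes Dgka was at 107 CPM in WT and 73.9 in VISTA-KO, a ratio of 0.690 (0.628 to 0.758), against 187 and 172 in clonotypes seen once. That ratio rested in large part on the largest WT clonotype, where Dgka was at 156 CPM: with the largest of either library left out, Dgka was at 84.9 and 73.6 CPM, a ratio of 0.867 (0.772 to 0.973). The ratio of Tagap was 1.86 (1.69 to 2.04) for clonotypes seen once, 1.80 (1.61 to 2.03) for 2 to 9 cells and 1.58 (1.46 to 1.72) for 10 or more, or 1.77 (1.61 to 1.95) when the largest were left out. Rasgrp1 had ratios of 1.13, 1.25 and 1.29 and Sla of 1.32, 1.30 and 1.41 in the same order.

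Taken 1 by 1, the 10 largest clonotypes of each library overlapped for every member. Tagap ran from 19.6 CPM through a median of 92.5 to 163 in WT and from 52.3 through 134 to 245 in VISTA-KO, with 4 of the 10 VISTA-KO clonotypes above the highest WT one. Dgka ran from 35.3 through 104 to 169 in WT and from 31.7 through 67.2 to 175 in VISTA-KO. Rasgrp1 ran from 62.7 through 112 to 155 and from 70.0 through 128 to 151. Clonotypes of 1 library thus differed among themselves by more than the medians of the libraries did.

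**Figure D5:**
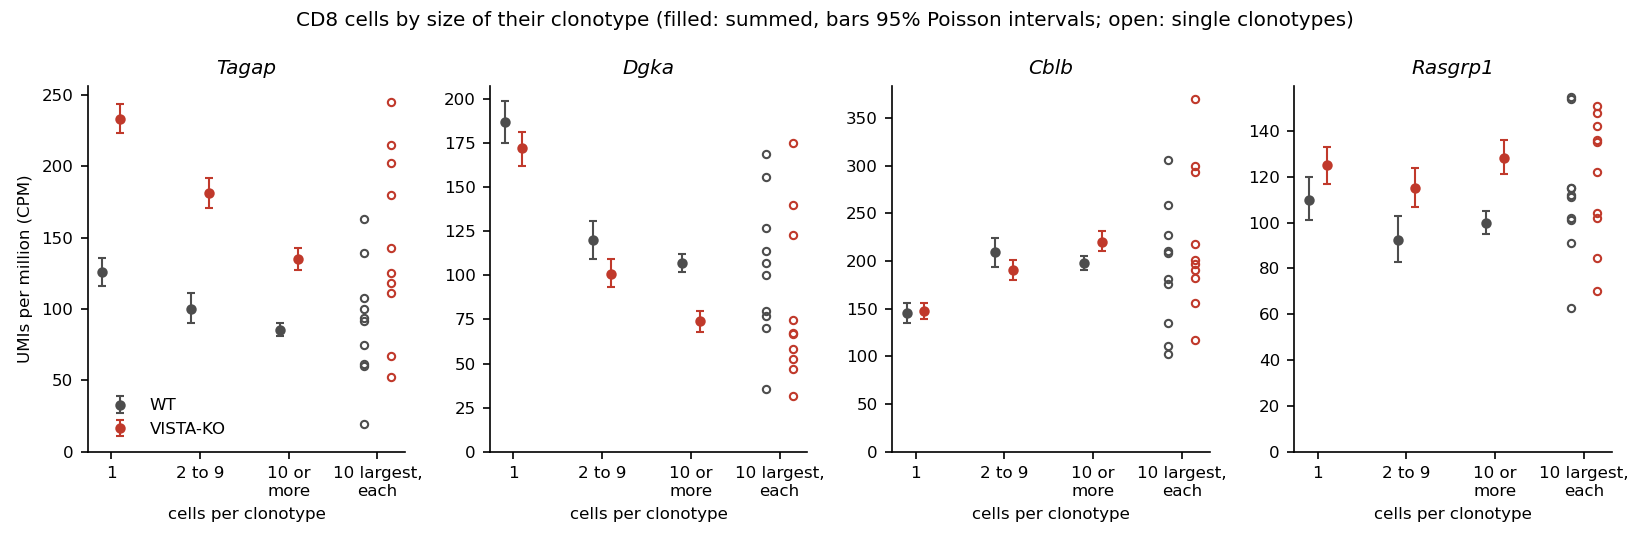
Level of Tagap, Dgka, Cblb and Rasgrp1 in CPM (vertical axis, starting at 0) in CD8 cells by the size of their clonotype (filled points, 95% Poisson intervals) and in each of the 10 largest clonotypes of a library (open points), WT in grey and VISTA-KO in red. Tagap and Dgka are lower in larger clonotypes, Cblb is higher, and the open points of the libraries overlap.

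Other genes of the pathway were set beside these values, in lists chosen with earlier results of these data known. Their counts are therefore not independent of those results. Of 16 paralogs of the members, 8 reached 20 CPM in CD8 cells and none lay past the fold. Their lowest log2 ratios were -0.16 for Ubash3b, the sister of Ubash3a, and -0.11 for Ptpn11 (SHP-2), and their highest 0.01 for Ptpn18 and 0.04 for Ptpn2. Of the 20 measured proximal relays, the receptor chains, kinases and adaptors between the TCR and its first branches, 0 were past the fold upward and 1 downward. That was Malt1, the paracaspase that leads to NF-kappaB, at 127 and 102 CPM (0.799). Cd247, the zeta chain, was at 284 and 234 CPM (0.823), and the highest was Prkcq (1.09). Of the 15 other brakes measured, none lay past the fold. Cd6 (1.22) and Cd5 (1.21), receptors whose level is known to follow TCR signal strength, were the highest, and Pag1 (0.911) was among the lowest. Of the 9 measured genes induced by TCR signals, 6 were past the fold upward, against 2.85% of all genes, with a median log2 ratio of 0.71. Nr4a1 was at 127 and 371 CPM (2.92) and Nr4a3 at 31.9 and 78.8 (2.47), whereas Cd69 (1.13) and Tnfrsf9 (0.879) lay within the fold. In conventional CD4 cells 6 of the 9 response genes were past the fold upward and 1, Tnfrsf9 (0.666), downward, against 3.87% and 4.95% of all genes. There Malt1 was again the 1 relay past the fold (0.755), Cd5 the 1 other brake (1.26), and of the 9 measured paralogs Rasgrp2 was higher (1.43) and Ubash3b lower (0.717). In regulatory cells 7 of the 9 response genes were past the fold, against 13.8% of all genes in either direction. So were 0 of the 20 proximal relays, none of the paralogs and 1 other brake, the ubiquitin ligase gene Peli1 (1.25). Those outside the CD8 cells were named after their values were seen. The median log2 ratios of paralogs, proximal relays and other brakes in CD8 cells, -0.06, -0.03 and -0.04, stood beside -0.03 over all genes.

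Likeness of pattern was measured as Pearson's r of log2(CPM plus 5) over 22 groups, the 4 classes and 7 gates of both libraries. These groups share their libraries, and the gates share cells with the CD8 class, so r is a description only. They include the Siglech cells, where Ptpn6 was at 635 and 710 CPM and Rasgrp1 at 28.1 and 24.5, far from their T cell levels. How far each r rests on the Siglech cells was not tested. Tagap was most like E430024P14Rik (0.988) and then Mbnl1 (0.875), an RNA-binding splicing regulator. Ptpn22 was most like Thy1 (0.987) and Cd3e (0.974), Dgkz like Zap70 (0.971) and Trac (0.968), and Ubash3a like Akna (0.982) and Inpp1 (0.979). Cblb was most like Abcb9 (0.959) and Sh2d1a (0.952), Sla like Cish (0.956) and Tap2 (0.935), Dgka like Rapgef6 (0.966) and Ikbke (0.961), and Rasgrp1 like Lfng (0.959) and Cdk17 (0.953). Sla2 was most like Napsa and Fuca2 (0.950 each) and Ptpn6 like Timm10b and Sec61b (0.949 each). Among the members, Ubash3a and Ptpn22 were the most alike (0.96), and Ptpn6 and Rasgrp1 the most opposed (-0.91). Tagap had no member above 0.28.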

How the data were processed

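Single-cell RNA and receptor libraries were made from 1 pool of sorted tumor-infiltrating cells per genotype. The deposited matrices hold UMI counts per gene and barcode that the authors made with Cell Ranger 5.0.0 (multi pipeline, mm10-2020-A reference), and the deposited receptor tables hold UMI counts per TCR chain, used here for clonotypes. The study's methods describe a 5′ kit and the labels' protocol a 3′ kit. The authors went on in Seurat 4.0, and their clusters were not used here. UMIs were summed per library and class, and a gene was compared where it reached 20 CPM in 1 of the libraries, with a pseudocount of 5 CPM. Classes were exclusive: cells with 2 or more Siglech UMIs entered no T cell class, and 13.4% of WT and 12.7% of VISTA-KO cells entered none. No doublet caller was run. Cells with 2 productive beta chains or over 20000 UMIs (928 WT and 732 VISTA-KO) were kept and left out in an alternative. The libraries shared 145 barcodes. Of the Siglech cells 144 and 75 held a Cd4 UMI. Shares and Nr4a1 strata used cells thinned at random to 2000 UMIs, without shallower cells. The genes, lists and gates were chosen with earlier results of these data known, and 2 genes at each end of a list, by ratio in CD8 cells, were named. Of these, 2 genes and 1 gate are not reported here. Computation used Python 3.11.15, numpy 2.4.6, scipy 1.17.1 and pandas 2.3.3. The script was tested on simulated data. Ratios carry exact conditional binomial intervals and shares Clopper-Pearson intervals. Gene positions and promoters come from RefSeq (GRCm38.p6).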

Additional observations from a re-analysis of the deposited data

Results flagged for a closer look

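Ptpn6 was higher in VISTA-KO in CD8 cells and lower in regulatory cells, each with an interval that left out 1, so that the ratio of VISTA-KO over WT was 1.32 times as high in CD8 as in regulatory cells. Dgka had the opposite arrangement: its ratio was 1.18 times as high in conventional CD4 as in CD8 cells and 1.26 times as high in regulatory as in CD8 cells. These differences between classes were not tested, since each class has 1 library per genotype. Without cells holding a Mki67 or Top2a UMI the log2 ratios of Dgka were -0.05 in CD8, -0.02 in conventional CD4 and 0.05 in regulatory cells, so the arrangement of Dgka nearly vanished there.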

How the results depend on the processing

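With 1 library per genotype, no alternative shows the spread between mice, and depth limits the Siglech cells most. No paired analysis was possible because each genotype has 1 library. Over all alternatives in the 3 T cell classes, 306 of 340 log2 ratios of single members stayed inside the 95% interval of the reported ratio. The other 34 moved outside it. Only log2 ratios past the fold could count as reversed, and 0 did. Some smaller ones changed sign, such as that of Ptpn6 in conventional CD4 cells, from -0.03 to 0.16 when thinned to 2000 UMIs. Siglech cells are outside this count, and there the log2 ratio of Ubash3a went from -0.73 to 0.51 when thinned. Tagap stayed past the fold in each T cell class. In CD8 cells 2 to 3 members were past it, in regulatory cells 2 to 4. In Siglech cells the 5 members became 3 when thinned (Ubash3a turned, Tagap, Ptpn6 added) and were 4 to 5 otherwise. In conventional CD4 cells the count of 1 became 2 with ratios divided by the median ratio (Rasgrp1 added), 3 with 2 UMIs of each defining gene (Cblb and Rasgrp1 added) and 3 with Siglech cells also in the T cell classes (Sla2 and Rasgrp1 added). Regulatory over CD8 cells, 1 member, became 0 with ratios divided by the median ratio, 2 with cells thinned to 2000 UMIs and 2 without doublet-like cells (Ptpn22 added). Sla gave way to Ptpn22 without Mki67 or Top2a cells and with a denominator free of ribosomal, mitochondrial and receptor genes. Conventional CD4 over CD8 cells, 0 members, became 2 when thinned (Ptpn6 and Dgka), and 1 (Ptpn6) without doublet-like cells or without Mki67 or Top2a cells. Members with a higher share of cells in VISTA-KO went from 5 to 3 in conventional CD4 and from 6 to 1 in regulatory cells with no thinning, where WT regulatory cells were deeper. The settings without melanoma-rich cells and with the WT gate makeup, and those for the Siglech cells, were chosen after seeing the data. The cause of each move was not tested.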
